A study of Homo sapiens with 21 samples.

Results

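A set of 10 inflammatory genes of the NF-kB and STAT3 pathways was followed through the established human liver cancer line HepG2 after exposure to caffeine. The set was given as 10 symbols and matched to Ensembl IDs in a gene count table of 37637 features. Of the 10 genes, 9 had a row in the table, and CXCL1 had none and was not analysed here. The filter on low counts kept 6 of them among 17468 genes tested, namely the interleukin 6 receptor gene IL6R, the transcription factor gene STAT3, its feedback inhibitor gene SOCS3, the NF-kB inhibitor genes NFKBIA and TNFAIP3, and the acute phase gene LCN2. The chemokine genes CXCL2, CXCL5 and CXCL8 had too few counts for the test and are given as counts.

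The study measured poly(A)-selected RNA in 21 libraries, 3 for each of 7 groups that held caffeine at 0, 0.01, 0.1, 1, 10, 100 or 1000 µM for 6 h. Caffeine, a methylxanthine, acts as an antagonist of adenosine receptors. In every group, the 0 µM controls included, medium with serum was replaced by serum-free DMEM at the time of exposure, and the cells were later detached with trypsin and EDTA. The controls received the same medium without caffeine per the sample labels, while the series text names another compound at 0 µM for the control group. HepG2 is a single tumour line. The series text calls the 3 samples of a group biological replicates without saying how the cultures were kept apart. The p-values therefore set a group difference against the spread between cultures of a single line, however these were kept apart.

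The libraries held between 28043623 and 40827833 counts (median 32497612). The share of counts on 15 mitochondrial genes ran from 4.95% to 14.2%, with the highest value in 1 µM replicate 3, and the 0.01 µM replicate 1 library stood at 11.7%. The 8 hepatocyte and HepG2 markers summed to 21100 to 26901 CPM in every library, with ALB between 4745 and 7145 CPM and AFP between 1963 and 3779 CPM, so the labelled cell line carried its defining genes. CPM is the read count relative to the TMM-scaled library total. Of 12 markers of other cell types, 11 had a row and summed to 1276 to 1496 CPM at 0 µM and 962 to 1308 CPM at 1000 µM, nearly all of it LYZ. The leukocyte gene PTPRC and the T cell gene CD3E reached at most 1 count in any library, and the collagen gene COL1A2 stayed at 0 counts in all 21. Of the markers of other cell types, 5 passed the filter on low counts. At 1000 µM 3 of these 5 fell, CD14 and ACTA2 among them, and none rose, where 20.6% of all genes fell. The median log2 fold change of the 5 was -0.71, against -0.03 over all genes, and their part in the results was not tested.

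NF-kB is a family of transcription factors held in the cytoplasm by IkB proteins such as the product of NFKBIA. Signals from the TNF and interleukin 1 receptors activate a kinase complex that marks IkB for destruction, and NF-kB then enters the nucleus and switches on chemokine genes together with its own inhibitors NFKBIA and TNFAIP3. Interleukin 6 binds the receptor encoded by IL6R, which pairs with the shared subunit encoded by IL6ST and activates JAK kinases and STAT3, and STAT3 in turn switches on SOCS3, which shuts the kinases down. In hepatocytes both pathways drive the acute phase response, the change in secreted liver proteins during inflammation.

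The promoters of the members show which of them carry the letters of an NF-kB element beside a start annotated in RefSeq. RefSeq windows of GRCh38.p14 that reach 250 bases upstream of the annotated start matched all 10 symbols, with 11 windows because SOCS3 has 2. The letters GGNNNTTCC were searched on both strands, so that a match on the other strand reads as GGAANNNCC when printed, and a palindromic match was counted once. At least 1 match was present for 8 of the 10 genes, whereas 17.1% of 35116 windows of the same length held one. IL6R and SOCS3 had no match in these windows. The letters TTCNNNGAA, a STAT element, were found in 1 gene of the 10, CXCL5, where they share bases with its NF-kB match, against 6.57% of all windows. The 2 SOCS3 windows, chr17:78360926-78361175 and chr17:78359668-78359917, do not adjoin the start of the gene in GENCODE v29, at 78360077 on the minus strand. The bases just upstream of that start were not searched for either element. A match is a description of the letters and not evidence of binding. The windows below are printed 5′ to 3′ on the strand of the gene, with matches to GGNNNTTCC in capitals, for both inhibitors, for the chemokine with the most counts, for the acute phase gene, and for IL6R, the gene whose level changed most.
NFKBIA promoter: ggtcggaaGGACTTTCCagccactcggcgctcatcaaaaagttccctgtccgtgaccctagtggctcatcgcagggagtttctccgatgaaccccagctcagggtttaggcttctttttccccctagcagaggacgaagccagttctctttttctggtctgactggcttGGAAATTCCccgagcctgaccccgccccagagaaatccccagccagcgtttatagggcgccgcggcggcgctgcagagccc
TNFAIP3 promoter: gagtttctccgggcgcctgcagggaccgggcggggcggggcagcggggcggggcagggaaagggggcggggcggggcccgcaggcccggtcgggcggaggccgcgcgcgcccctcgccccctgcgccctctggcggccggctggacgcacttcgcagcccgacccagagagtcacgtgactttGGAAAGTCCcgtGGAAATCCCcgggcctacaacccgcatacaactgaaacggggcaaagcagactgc
CXCL8 promoter: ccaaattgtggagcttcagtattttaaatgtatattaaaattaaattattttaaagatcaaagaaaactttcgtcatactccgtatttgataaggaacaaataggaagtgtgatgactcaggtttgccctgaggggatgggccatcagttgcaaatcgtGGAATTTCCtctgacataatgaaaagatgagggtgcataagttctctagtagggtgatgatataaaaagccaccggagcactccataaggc
LCN2 promoter: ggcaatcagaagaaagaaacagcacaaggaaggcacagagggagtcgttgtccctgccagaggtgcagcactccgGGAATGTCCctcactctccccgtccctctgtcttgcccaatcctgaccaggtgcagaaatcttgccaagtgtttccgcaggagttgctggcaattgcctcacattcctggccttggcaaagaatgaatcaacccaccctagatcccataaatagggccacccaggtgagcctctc
IL6R promoter: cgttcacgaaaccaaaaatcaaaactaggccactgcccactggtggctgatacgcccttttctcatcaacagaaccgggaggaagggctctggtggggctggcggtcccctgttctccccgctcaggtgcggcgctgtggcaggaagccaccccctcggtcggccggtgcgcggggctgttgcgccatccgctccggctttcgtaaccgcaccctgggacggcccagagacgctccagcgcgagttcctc
These windows lie at chr14:35404750-35404999 on the minus strand for NFKBIA and, on the plus strand, at chr6:137867009-137867258 for TNFAIP3, chr4:73740319-73740568 for CXCL8, chr9:128149203-128149452 for LCN2 and chr1:154405093-154405342 for IL6R. NFKBIA held GGACTTTCC from 242 to 234 bases upstream of its start and the palindrome GGAAATTCC from 81 to 73 bases upstream. TNFAIP3 held a pair of neighbouring matches on the minus strand, at 67 to 59 and at 55 to 47 bases upstream. CXCL8 held GGAATTTCC at 91 to 83 bases upstream, and the same letters stood at 90 to 82 bases upstream in CXCL5, 78 to 70 in CXCL1 and 77 to 69 in CXCL2. The LCN2 match lay farther out, at 175 to 167 bases upstream. These distances are from the RefSeq start. LCN2 starts at 128149071 in GENCODE v29, so its whole window and its match lie inside that gene. The bases just upstream of that start were not searched. IL6R starts at 154405193, so most of its window lies inside the gene. The windows of TNFAIP3, CXCL8, CXCL2, CXCL5 and STAT3 also run into the gene, and so do their matches except that of CXCL8.

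The members differed widely in level per length. Over the 21 libraries the median CPM per kilobase of exon was 14.6 for NFKBIA, 8.11 for IL6R, 7.66 for STAT3, 6.38 for TNFAIP3 and 1.19 for LCN2. It was 0.171 for SOCS3, 0.0417 for CXCL8, 0.0183 for CXCL2 and 0 for CXCL5. The inhibitors, the receptor and STAT3 thus stood far above CXCL2, CXCL5 and CXCL8. The order among IL6R, STAT3 and TNFAIP3 depends on the exons counted as length, since with basic transcripts alone the medians were 8.68 for IL6R, 13.4 for STAT3 and 6.80 for TNFAIP3. Where no read was counted, up to 3 counts remain possible, equal to between 0.0735 and 0.107 CPM, a limit that covers counting error only.

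IL6R rose at 10, 100 and 1000 µM, and its fitted level at 1000 µM was 2.07-fold that of the controls. IL6R (ENSG00000160712.13, chromosome 1, 154405193 to 154469450, plus strand, GRCh38 with GENCODE v29) encodes the ligand-binding chain of the interleukin 6 receptor. The 3 control libraries held 37.8, 42.4 and 45.5 CPM. The 0.01 µM libraries held 45.1, 52.0 and 50.0 CPM, the 0.1 µM libraries 50.9, 52.3 and 44.4 CPM, and the 1 µM libraries 47.4, 52.7 and 49.1 CPM. Values at these 3 doses lay mostly just above the controls, with 1 library at 0.01 µM and 1 at 0.1 µM inside the control range. The 10 µM libraries stood at 54.4, 53.7 and 55.8 CPM, the 100 µM libraries at 53.2, 54.9 and 55.4 CPM, and the 1000 µM libraries at 91.4, 81.0 and 88.2 CPM. All libraries at 10 and 100 µM lay above all controls, these doses overlapped each other, and all libraries at 1000 µM lay above every other library. The mean was 41.9 ± 3.87 CPM at 0 µM and 86.9 ± 5.34 CPM at 1000 µM (SD, n = 3). The log2 fold change at 1000 µM was 1.05 ± 0.09 (SE), with an adjusted p of 1.3e-07 in edgeR's quasi-likelihood test. Values of 0.38 ± 0.09 were found at 100 µM (adjusted p 0.024, edgeR) and of 0.38 ± 0.09 at 10 µM (adjusted p 0.0066, edgeR). The 1000 µM group also stood above the 100 µM group, which shares no library with the controls, with a log2 difference of 0.67 ± 0.09 (adjusted p 4.5e-05, edgeR). The test at 100 µM did not pass without any of 4 single libraries, controls 1 and 2 and 100 µM replicates 2 and 3, with adjusted p between 0.0783 and 0.124. Whether the counting used strand is not given in the sources used here, so reads of the opposite-strand genes IL6R-AS1 and PSMD8P1 cannot be told apart from IL6R. In bulk samples fewer cells that carry a gene and less of its RNA per cell cannot be told apart.

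**Figure D1:**
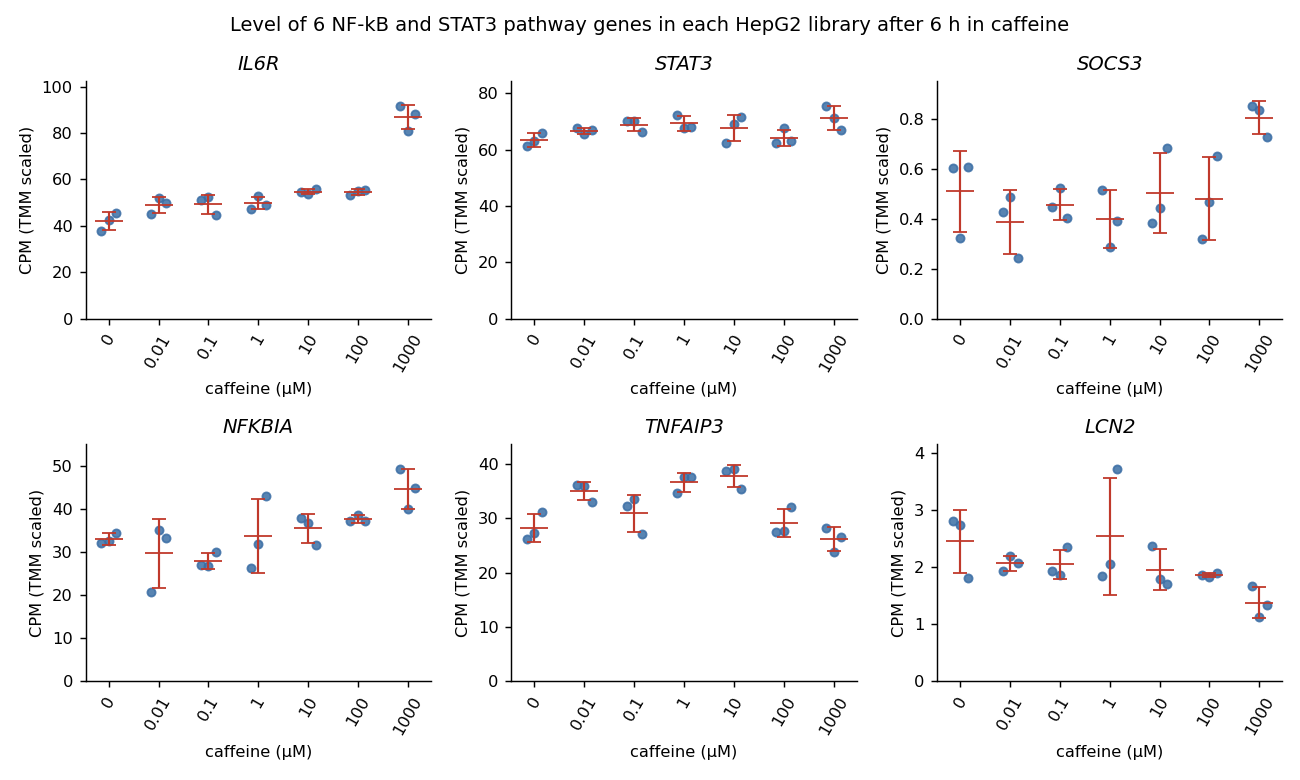
Level of IL6R, STAT3, SOCS3, NFKBIA, TNFAIP3 and LCN2 in CPM (TMM scaled) against the caffeine dose in µM; blue points are the 21 libraries, and red bars are the mean ± SD of the 3 libraries of a group. IL6R lies between 81.0 and 91.4 CPM at 1000 µM, above every other library, and TNFAIP3 is highest at 10 µM, at 35.5 to 39.1 CPM, and within or below the control range at 1000 µM.

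Most genes on a list of other receptors and signalling proteins of the interleukin 6 family rose at 1000 µM as well. Of 10 listed genes, all tested, 7 rose and none fell, where 41.2% of all genes tested passed the threshold and 20.6% rose. The median log2 fold change of the 10 genes was 0.67, against -0.03 over all genes tested. OSMR, the oncostatin M receptor chain, rose by 0.88 ± 0.10 on the log2 scale, from 82.8 ± 1.07 to 152 ± 8.26 CPM (SD, n = 3 each; adjusted p 5.1e-06, edgeR). IL6ST, the shared signalling subunit, rose by 0.83 ± 0.17 from 93.7 ± 5.59 to 167 ± 18.8 CPM (adjusted p 0.00076, edgeR). GAB1, an adaptor of the receptor complex, rose by 0.82 ± 0.17 from 10.5 ± 1.73 to 18.6 ± 2.29 CPM (adjusted p 0.0011, edgeR). For each of these genes all 3 libraries at 1000 µM lay above all controls. Genes on the opposite strand overlap OSMR, IL6ST and GAB1, and the same holds for SOCS1, CISH, FGL1, TAB2, RIPK1, TBK1, ITCH, TAX1BP1, IL32, CP, A2M, HP, APOA1 and RBP4 named below, so their counts are uncertain to that extent. The other genes that rose were LIFR, JAK1, JAK2 and PTPN11, with log2 fold changes between 0.49 and 0.77. At 10 µM 3 of the 10 genes rose (median 0.33), where 22.0% of all genes passed the threshold. At 100 µM 1 of the 10 rose (median 0.26), where 6.02% of all genes passed. At 0.01 µM 2 of the 10 rose (median 0.30), where 4.95% of all genes passed. At 0.1 and 1 µM none was called (medians 0.31 and 0.26), where edgeR called 0.00% of all genes. The medians from 0.01 to 100 µM thus lay between 0.26 and 0.33, against the same 3 controls.

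STAT3 (ENSG00000168610.14, chromosome 17, 42313324 to 42388568, minus strand), the transcription factor downstream of the receptor, varied little. Control libraries held 61.3, 63.1 and 66.0 CPM and those at 1000 µM 75.3, 71.3 and 66.9 CPM, with all 3 above the controls by small margins. Group means at the doses from 0.01 to 100 µM lay between 64.3 ± 2.85 and 69.3 ± 2.72 CPM (SD, n = 3 each) and had no order by dose. The log2 fold change at 1000 µM was 0.16 ± 0.07, with a 95% interval from 0.01 to 0.32 and an adjusted p of 0.0734 in the edgeR test, so it did not pass the threshold. It passed with DESeq2 (adjusted p 0.0162), with RLE size factors (0.0443), with the mitochondrial share as a covariate (0.0400) and without 0 µM replicate 3 (0.0495), within a range of 0.0162 to 0.229 over the 13 alternatives.

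SOCS3 (ENSG00000184557.4, chromosome 17, 78356778 to 78360077, minus strand) was close to the lower limit of the test, with 8 to 34 counts per library. Control libraries held 18, 10 and 19 counts, and those at 1000 µM held 29, 34 and 23 counts. In CPM the controls lay at 0.602, 0.322 and 0.606 and the 1000 µM libraries at 0.851, 0.837 and 0.729. The 1000 µM libraries lay above all controls and also above every other library of the series, the highest of which was 10 µM replicate 3 at 0.686 CPM. The log2 fold change was 0.66 ± 0.33 with a 95% interval from -0.05 to 1.37 and an adjusted p of 0.120 in the edgeR test. The difference did not pass the threshold. The slope on dose step, the rank of the dose from 0 to 6, was 0.11 ± 0.05 in log2 per step (adjusted p 0.0945, edgeR), and it passed on the linear dose (adjusted p 0.0080), over the treated libraries alone (0.0477), without 0 µM replicate 3 (0.0483) and without 100 µM replicate 1 (0.0457).

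Other target and feedback genes of STAT3 went in both directions at 1000 µM. Of 13 genes, all tested, 3 rose and 4 fell, where 20.6% of all genes rose and 20.6% fell, and the median log2 fold change was 0.06 against -0.03 over all genes. SOCS1, a feedback inhibitor of JAK kinases related to SOCS3, fell by 1.82 on the log2 scale (SE 0.23), from 5.22 ± 0.534 to 1.49 ± 0.367 CPM (SD, n = 3 each; adjusted p 9.8e-06, edgeR). CISH, another member of that inhibitor family, fell from 3.91 ± 0.0698 to 2.01 ± 0.485 CPM, a log2 fold change of -0.97 ± 0.18 (adjusted p 0.00044, edgeR). CEBPD, a transcription factor of the acute phase response, fell from 18.6 ± 2.41 to 8.97 ± 0.721 CPM, a log2 fold change of -1.05 ± 0.24 (adjusted p 0.0019, edgeR). CEBPD was also lower at 10 µM, at 9.66 ± 1.46 CPM (adjusted p 0.011, edgeR). PIM1, a survival kinase, rose at 1000 µM by 0.79 ± 0.15 (adjusted p 0.00039, edgeR) but fell at 10 µM by 0.54 (SE 0.15, adjusted p 0.016, edgeR), with group means of 24.7 ± 2.56, 16.9 ± 1.55, 19.7 ± 0.984 and 42.7 ± 6.62 CPM at 0, 10, 100 and 1000 µM. The secreted hepatokine gene FGL1 and the survival gene MCL1 also rose at 1000 µM, by 0.70 ± 0.11 and 0.53 ± 0.12. SOCS1 and SOCS3, which encode inhibitors of the same kinases, thus had log2 fold changes of opposite sign, of which that of SOCS1 passed the test.

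NFKBIA (ENSG00000100906.10, chromosome 14, 35401511 to 35404749, minus strand), the gene of the IkB inhibitor, rose at 1000 µM by a small amount. Control libraries held 32.2, 32.5 and 34.6 CPM and those at 1000 µM 49.4, 40.1 and 44.95 CPM, without overlap. The libraries at 100 µM, at 37.3, 38.8 and 37.2 CPM, also lay above all controls, and those at 10 µM held 38.0, 36.9 and 31.8 CPM. The 0.1 µM libraries, at 27.0, 26.9 and 30.1 CPM, all lay below all controls (log2 fold change -0.24 ± 0.17, adjusted p 0.526, edgeR). At 0.01 and 1 µM single libraries stood apart, with 20.7, 35.3 and 33.3 CPM at 0.01 µM and 26.3, 31.9 and 43.2 CPM at 1 µM. The low library, 0.01 µM replicate 1, and the high library, 1 µM replicate 3, were the libraries with the highest mitochondrial shares, 11.7% and 14.2%. The log2 fold change at 1000 µM was 0.44 ± 0.17 with an adjusted p of 0.0483 in the edgeR test. It lay so near the threshold that it did not pass with the mitochondrial share as a covariate (adjusted p 0.0697) or without any 1 of 5 libraries, the controls 1, 2 and 3 and the 1000 µM replicates 1 and 3 (0.0597 to 0.119), and adjusted p ran from 0.0069 to 0.119 over all 13 alternatives. The slope of NFKBIA on dose step was 0.08 ± 0.02 in log2 per step (adjusted p 0.011, edgeR). Without the 3 libraries at 1000 µM the slope was 0.06 with an adjusted p of 0.235.

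TNFAIP3 (ENSG00000118503.15, chromosome 6, 137867188 to 137883312, plus strand), which encodes an enzyme that removes ubiquitin from signalling proteins upstream of NF-kB, had another dose pattern. It rose at 10 µM and did not differ from the controls past the threshold at 100 or 1000 µM. Control libraries held 26.2, 27.3 and 31.1 CPM, those at 10 µM 38.8, 39.1 and 35.5 CPM, those at 100 µM 27.4, 27.7 and 32.1 CPM and those at 1000 µM 28.2, 23.9 and 26.5 CPM. The libraries at 10 µM lay above all controls and above all libraries at 100 and 1000 µM, and the latter overlapped the controls. The 0.01 µM libraries held 36.1, 36.0 and 33.1 CPM, the 0.1 µM libraries 32.2, 33.5 and 27.0 CPM and the 1 µM libraries 34.7, 37.7 and 37.7 CPM, so that 11 of 12 libraries from 0.01 to 10 µM lay above all controls. The log2 fold change was 0.42 ± 0.10 at 10 µM (adjusted p 0.0082, edgeR), 0.38 ± 0.10 at 1 µM (adjusted p 0.0848) and 0.31 ± 0.10 at 0.01 µM (adjusted p 0.0655). At 1000 µM it was -0.11 ± 0.10 (95% interval -0.32 to 0.11, adjusted p 0.405). Without 0 µM replicate 1 the value at 10 µM was 0.37 with an adjusted p of 0.0521, in a range of 0.00053 to 0.0521 over 13 alternatives. The opposite-strand gene AL357060.1 overlaps TNFAIP3, and its reads cannot be told apart from those of TNFAIP3.

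The contrast of 1000 µM against 10 µM was added after these values were seen and uses no control library. TNFAIP3 was lower at 1000 µM than at 10 µM by a log2 difference of -0.53 ± 0.10 (adjusted p 0.0011, edgeR), while IL6R was higher by 0.67 ± 0.09 (adjusted p 3.0e-05, edgeR), where 18.4% of all genes passed the threshold. Both were called under all 13 alternatives run for this contrast. Of the 6 genes tested, 5 had libraries at 1000 µM that did not overlap those at 10 µM, against 36.1% of all genes. For 100 µM against 10 µM, also added, the log2 difference of TNFAIP3 was -0.38 ± 0.10 with an adjusted p of 0.392 in a comparison where 0.0515% of all genes passed. In that comparison edgeR called none of the 6 genes, 1 of them had an unadjusted p under 0.05, and DESeq2 called none either.

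**Figure D2:**
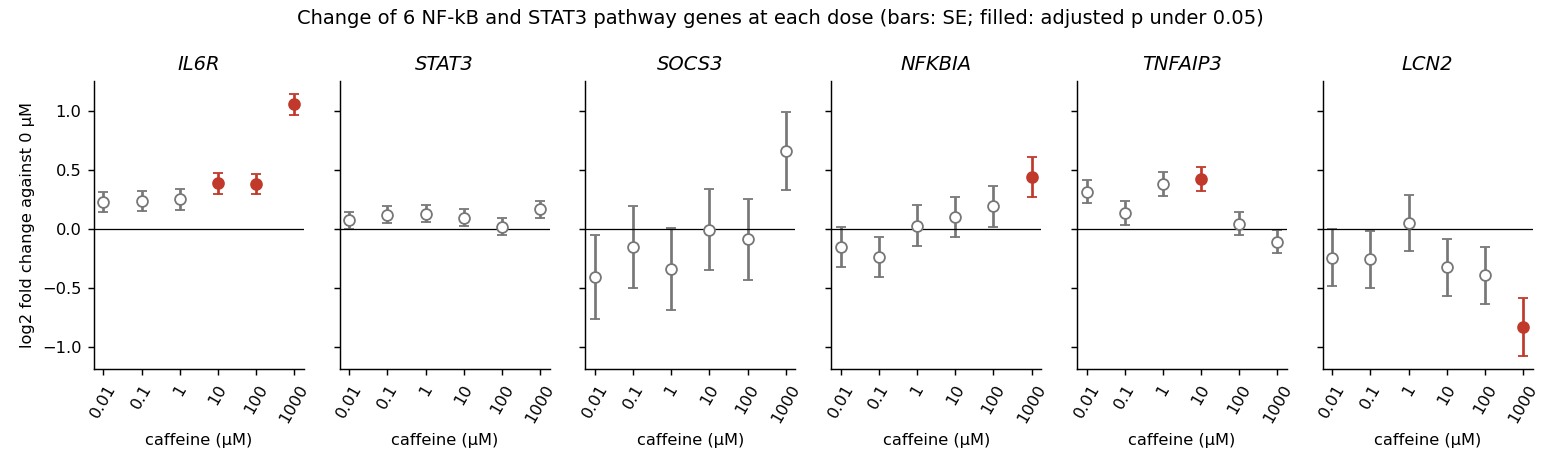
Log2 fold change against 0 µM of IL6R, STAT3, SOCS3, NFKBIA, TNFAIP3 and LCN2 (panels) at each caffeine dose in µM; bars are SE, and filled points have an adjusted p under 0.05. IL6R is filled at 10, 100 and 1000 µM, TNFAIP3 at 10 µM, and NFKBIA and LCN2 at 1000 µM. All 6 doses are compared with the same 3 control libraries.

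At 1000 µM the share of upstream NF-kB pathway genes called in either direction was near the 41.2% of all genes. Most of these calls were rises, whereas 20.6% of all genes rose and 20.6% fell. Of 22 listed receptors, cytokines and adaptors, 15 were tested, and 6 rose while 1 fell, with a median log2 fold change of 0.24 against -0.03 over all genes. TNFRSF1A, the main TNF receptor gene, rose by 0.94 ± 0.09 from 66.3 ± 2.48 to 127 ± 6.07 CPM (SD, n = 3 each; adjusted p 5.1e-07, edgeR). TAB2 and RIPK1, which encode an adaptor and a kinase of receptor complexes, rose by 0.73 ± 0.11 and 0.65 ± 0.07. IRAK1, a kinase of the interleukin 1 receptor complex, fell by 0.38 (SE 0.11, adjusted p 0.0085, edgeR). Of 11 kinase and subunit genes, all tested, 5 rose and none fell, where 20.6% of all genes rose and 20.6% fell. The median of the 11 was 0.33, against -0.03 over all genes. The 5 that rose included IKBKG, the regulatory subunit of the IkB kinase, at 0.66 ± 0.10, TBK1 at 0.64 ± 0.08 and the NF-kB subunit gene REL at 0.62 ± 0.22. IKBKG has a near-identical pseudogene, so its reads are uncertain. Its mean was 27.3 ± 2.19 CPM at 0 µM, 21.0 ± 3.12 at 10 µM and 43.1 ± 1.92 at 1000 µM, so that it fell at 10 µM (-0.38 ± 0.10, adjusted p 0.014, edgeR) and rose at 1000 µM.

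Further inhibitors and targets of NF-kB were read against the same background of 41.2%, with 20.6% of all genes called as higher and 20.6% as lower. Of 12 other inhibitor and feedback genes, all tested, 3 rose and none fell (median 0.14), namely the ubiquitin ligase gene ITCH at 0.78 ± 0.10, TAX1BP1, a partner of TNFAIP3, at 0.73 ± 0.10 and the deubiquitinase gene OTULIN at 0.40 ± 0.14. Of 24 other target genes, 14 were tested, and 3 rose and 2 fell, with a median of -0.01 against -0.03 over all genes. GADD45B, a stress gene, rose from 4.22 ± 0.446 to 6.77 ± 0.56 CPM (0.68 ± 0.19, adjusted p 0.0095, edgeR), and TNFAIP2 and the complement gene C3 rose by 0.45 ± 0.17 and 0.41 ± 0.12. BIRC3, an inhibitor of apoptosis, fell from 1.38 ± 0.186 to 0.704 ± 0.203 CPM (-0.98 ± 0.25, adjusted p 0.0047, edgeR), and the cytokine gene IL32 fell from 116 ± 11.1 to 63.8 ± 12.6 CPM (-0.87 ± 0.19, adjusted p 0.0018, edgeR). The cytokine gene TNF itself had 0 to 6 counts per library.

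CXCL2, CXCL5 and CXCL8 had few or no counts in every group. The chemokine genes CXCL10 and CXCL11 of the NF-kB target list were also near 0, with 1 count each over the 21 libraries. CX3CL1 and CCL20 of that list were well expressed. CX3CL1, a membrane-bound chemokine, lay between 117 and 193 CPM over the 21 libraries and CCL20, a lymphocyte attractant, between 22.3 and 42.7 CPM, and neither passed the test at 1000 µM (log2 fold changes of -0.04 ± 0.12 and -0.28 ± 0.17, adjusted p 0.83 and 0.19, edgeR). CXCL8, the neutrophil attractant interleukin 8 (ENSG00000169429.11, chromosome 4, 73740506 to 73743716, plus strand), had 71 counts over the 21 libraries. Its libraries held 4, 1 and 4 counts at 0 µM, 1, 11 and 7 counts at 100 µM and 3, 3 and 4 counts at 1000 µM, and 2 of the 21 libraries were at 0. The groups overlapped throughout, and the highest library, 100 µM replicate 2, stood at 0.321 CPM beside a library of its own group at 0.0291 CPM. CXCL2 (ENSG00000081041.9, chromosome 4, 74097035 to 74099293, minus strand) had 20 counts in all. It had 0, 1 and 1 counts at 0 µM, 2, 3 and 1 counts at 10 µM and 0 counts in all 6 libraries at 100 and 1000 µM. Since the controls were also under the floor of 3 counts, no fold is given. CXCL5 (ENSG00000163735.7, chromosome 4, 73995642 to 73998779, minus strand) had 5 counts in all, at most 1 in a library. The near-identical neighbour CXCL3 had 3 counts in all, and reads of CXCL1, CXCL2 and CXCL3 may be split between these copies by the counting. With no filter on low counts, edgeR gave adjusted p of 0.346 for CXCL2, 1 for CXCL5 and 1 for CXCL8 at 1000 µM. A difference in CXCL2, CXCL5 or CXCL8 was not detectable at this depth.

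**Figure D3:**
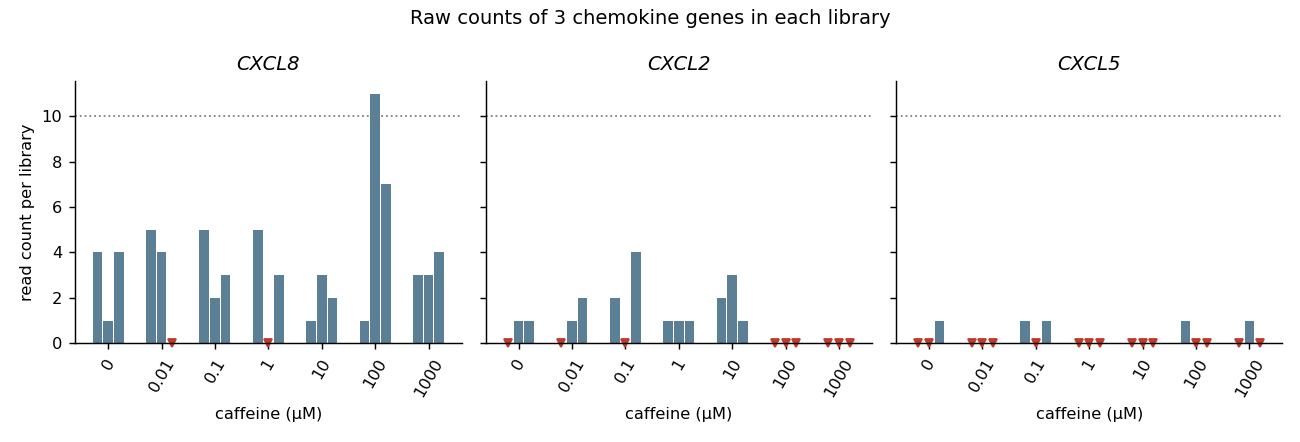
Raw read count per library of CXCL8, CXCL2 and CXCL5 against the caffeine dose in µM; bars are the 3 libraries of each group, red triangles mark a count of 0, and the dotted line is the minimum count of 10 used by the filter. Only CXCL8 in 100 µM replicate 2, with 11 counts, passes the line, and CXCL2 is at 0 in all 6 libraries at 100 and 1000 µM.

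LCN2 (ENSG00000148346.12, chromosome 9, 128149071 to 128153455, plus strand), a secreted iron-binding protein of the acute phase and a known target of NF-kB, fell at 1000 µM. Control libraries held 2.81, 2.74 and 1.82 CPM, from 57 to 85 counts, and those at 1000 µM 1.67, 1.13 and 1.33 CPM, from 42 to 57 counts. The groups did not overlap, although the gap between the lowest control and the highest treated library was small. Group means from 0.01 to 100 µM lay between 1.87 ± 0.0284 and 2.54 ± 1.03 CPM (SD, n = 3 each) inside the control range, and the highest library of all, 1 µM replicate 3 at 3.72 CPM, was also the one with the highest mitochondrial share. The log2 fold change at 1000 µM was -0.83 ± 0.24 with an adjusted p of 0.0113 in the edgeR test. It did not pass without 0 µM replicate 1 (adjusted p 0.0516) or without 1000 µM replicate 2 (adjusted p 0.0601), in a range of 0.0010 to 0.0601 over 13 alternatives. The slope on dose step was -0.10 ± 0.04 (adjusted p 0.037, edgeR), and it did not pass without the libraries at 1000 µM (adjusted p 0.410) or without any 1 of 6 libraries, controls 1 and 2, 10 µM replicate 3 and 1000 µM replicates 1, 2 and 3 (adjusted p 0.0517 to 0.103).

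Other secreted liver proteins listed with the acute phase went in both directions at 1000 µM. Of 19 genes listed as positive acute phase genes, 14 were tested, and 3 rose and 6 fell, where 20.6% of all genes rose and 20.6% fell. Their median log2 fold change was -0.25 against -0.03 over all genes. Whether each listed gene, SAA4 and A2M included, is induced in the human acute phase was not checked. HAMP, the iron hormone hepcidin and a textbook target of interleukin 6 and STAT3, rose 5.95-fold, from 0.757 ± 0.117 to 4.52 ± 1.37 CPM (log2 2.57 ± 0.24, adjusted p 5.1e-07, edgeR). HAMP had 19 to 27 counts in a control library, 26 to 34 in a library at 100 µM and 96 to 196 in one at 1000 µM. Which signal raised HAMP was not tested. CP, ceruloplasmin, and A2M, a protease inhibitor, rose by 0.57 ± 0.09 and 0.42 ± 0.09. SAA4, a serum amyloid A gene that overlaps SAA2-SAA4 on its own strand, fell from 70.7 ± 10.4 to 33.9 ± 9.17 CPM (-1.06 ± 0.17, adjusted p 0.00013, edgeR). HP, haptoglobin, which has a close paralog, and FGA, a fibrinogen chain, fell by 0.80 (SE 0.21) and 0.66 (SE 0.11). Of 7 negative acute phase genes, all tested, 3 fell and none rose (median -0.24), where 20.6% of all genes fell and 20.6% rose. Those that fell were APOA1, the main protein of high-density lipoprotein, at -1.04 ± 0.21, RBP4 at -0.59 ± 0.10 and SERPINA6 at -0.30 ± 0.09. The inducible serum amyloid gene SAA1 had 0 counts in all 21 libraries, and SAA2 had 5 in all.

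**Figure D4:**
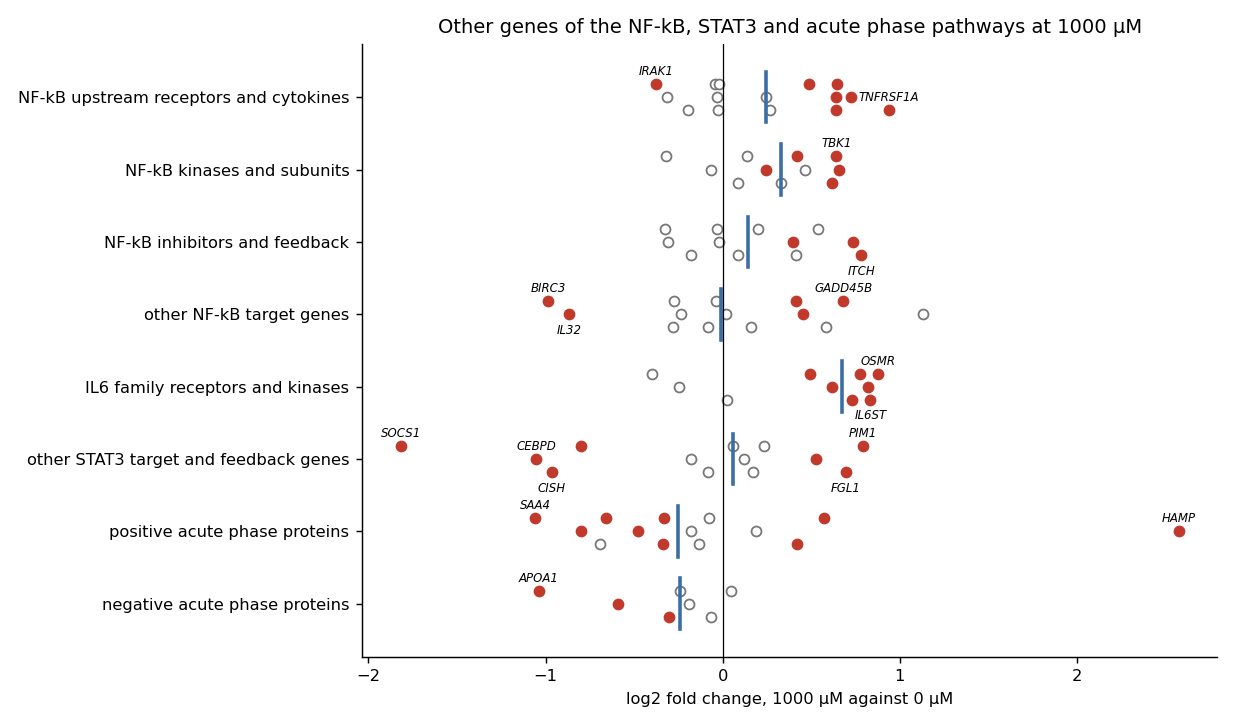
Log2 fold change at 1000 µM against 0 µM of every tested gene in 8 pathway lists (rows); filled red points have an adjusted p under 0.05, open points do not, and the blue line is the median of a list. The interleukin 6 family list has 7 filled points, all above 0, while other STAT3 targets run from SOCS1 at -1.82 to PIM1 at 0.79. Genes listed as positive acute phase genes run from SAA4 at -1.06 to HAMP at 2.57.

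Counted over the members, 3 of the 6 genes tested were called at 1000 µM, NFKBIA and IL6R as higher and LCN2 as lower, against 41.2% of all genes, a share near this background. Separately, 20.6% of all genes rose and 20.6% fell. Their median log2 fold change was 0.30, against -0.03 over all genes. Libraries at 1000 µM did not overlap the controls for 5 of the 6 genes, the exception being TNFAIP3, against 53.2% of all genes. At 100 µM 1 of 6 was called, where 6.02% of all genes were, and libraries did not overlap for 2 of 6, against 43.0%. At 10 µM 2 of 6 were called, where 22.0% were, and 2 of 6 did not overlap, against 45.8%. At 1000 µM against 100 µM 1 of 6 was called, where 14.7% were.

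At the 3 lowest doses edgeR called none of the 6 genes. Of all genes, edgeR called 0.00% at 1 µM, 0.00% at 0.1 µM and 4.95% at 0.01 µM. An unadjusted p under 0.05 was found for 2 members at 1 µM, 1 at 0.1 µM and 2 at 0.01 µM, and DESeq2 called TNFAIP3 and IL6R at 1 µM and at 0.01 µM and none at 0.1 µM. With the 4 groups from 0.01 to 10 µM averaged and compared with the controls, TNFAIP3 (0.31 ± 0.08, adjusted p 0.0148, edgeR) and IL6R (0.27 ± 0.07, adjusted p 0.0139, edgeR) were called, where 18.2% of all genes were. IL6R lay above all controls in 10 of those 12 libraries. Neither passed without 0 µM replicate 1 or without 0 µM replicate 2, with adjusted p between 0.0649 and 0.148. The calls at all doses share the 3 control libraries. Among the 7 groups together TNFAIP3 (adjusted p 0.0024, edgeR) and IL6R (adjusted p 1.6e-06, edgeR) differed, where 28.1% of all genes did. On dose step NFKBIA, IL6R and LCN2 had a slope, where 29.0% of all genes did, and that of IL6R was 0.13 ± 0.02 in log2 per step (adjusted p 0.00014, edgeR).

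The genes whose level followed each member most closely were sought by Pearson correlation of log2 CPM over the 21 libraries, among 12440 genes with a symbol and a mean of at least 1 CPM. These values describe libraries that share dose and depth, and no test was made. IL6R was closest to the receptor kinase gene ERBB3 (r = 0.985) and to CEMIP (r = 0.978), whose group means went from 206 to 468 CPM and from 51.4 to 293 CPM between 0 and 1000 µM. TNFAIP3 was closest to ARHGAP26 (r = 0.921) and DAB2 (r = 0.917), and DAB2 had the same form, with group means of 24.9, 36.2, 25.5 and 18.04 CPM at 0, 10, 100 and 1000 µM. NFKBIA was closest to the transcription factor gene FOXJ1 (r = 0.953) and to POR, the electron donor of cytochrome P450 enzymes (r = 0.947). LCN2 was closest to ISYNA1 (r = 0.919) and SNRPC (r = 0.911), both lower at 1000 than at 0 µM. For STAT3 and SOCS3 the highest values were lower, with SPECC1L (r = 0.777) and GPR107 (r = 0.772) for STAT3 and MANCR (r = 0.752) and GFI1 (r = 0.745) for SOCS3. The leading partners thus differed between all 6 genes, and none was a gene of the other pathway lists. The members were left out of the search, so none of them could appear as a partner of another.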

How the data were processed

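RNA from 21 HepG2 samples was measured by sequencing. The authors deposited raw read counts, whole and not normalized, in 1 table with a row per gene. HISAT2, DESeq2 and GRCh38 are named without versions or roles per the submitters' processing notes, and the counting program, annotation and use of strand are not given in the sources used here. Of 42 columns of per-sample counts, 21 matched the labels, and the other 21 were not used. Symbols were attached to 24852 of the 32937 Ensembl IDs. CXCL1 is not analysed here.

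edgeR 4.0.16 (R 4.3.3, limma 3.58.1) was fitted to all 21 libraries and 7 groups, with TMM scaling, filterByExpr at a minimum count of 10 and the quasi-likelihood test. The fit had 14 residual degrees of freedom and a common biological coefficient of variation of 0.162. P-values were adjusted over 17468 genes by Benjamini-Hochberg, threshold 0.05. SE is the log2 fold change over the square root of F. The slope used the dose rank from 0 to 6. Total counts of 28043623 to 40827833 give floors (3 counts) of 0.0735 to 0.107 CPM, for counting error only. DESeq2 1.42.0, other filters, scalings and covariates and each library left out were alternatives. The scripts were tested on simulated data.

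Replicate numbers were checked for pairing: deviations of same-numbered samples correlated at -0.437 to 0.249 over 63 pairs, and the numbers were not taken to pair samples. Chi-square per gene between replicates was 5.18 to 195, so each library was counted as a sample of its own. Apart from the members, genes were named by rule: from each pathway list up to 3 higher and 3 lower genes called at 1000 µM with the largest change and a mean of at least 1 CPM, and for each tested member the 2 genes with the most similar levels. LIFR, JAK1, JAK2, PTPN11, CX3CL1, CCL20, CXCL10, CXCL11, TNF, SAA1 and SAA2 were named after their values were seen. Members and lists were chosen with earlier results of these data known. Positions are from GENCODE v29 and promoters from RefSeq.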

Additional observations from a re-analysis of the deposited data

How the results depend on the processing

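Of 652 comparisons of 39 member values with an alternative, 608 kept their direction and their side of the threshold, 27 lost and 16 gained a call, and 1 changed sign. IL6R was called at 1000 µM against 0, 100 and 10 µM, at 10 µM and on dose step under every alternative run. The number of members called changed with single libraries left out: from 3 to between 1 and 3 at 1000 µM (1 without 0 µM replicate 1), from 1 to between 0 and 1 at 100 µM, from 2 to between 1 and 2 at 10 µM (1 without 0 µM replicate 1), from 0 to between 0 and 1 at 1 µM (1 without 1 µM replicate 1, TNFAIP3) and at 0.01 µM (1 without 0 µM replicate 3, TNFAIP3), and from 2 to between 0 and 2 for the average of 0.01 to 10 µM. Among the 7 groups it was 2 to 4 (4 without 1 µM replicate 1), and for the slope 2 to 4. DESeq2 called 2 members at 1 µM and 2 at 0.01 µM, and a minimum of 10 counts in every library gave 1 at 0.01 µM. Without the 3 libraries at 1000 µM, 0 members were called among the 7 groups and 1 for the slope, and a slope on the linear dose gave 5. The slope of TNFAIP3 was -0.02 in log2 per step over all libraries and 0.024 without those at 1000 µM, neither past the threshold. The causes were not tested beyond the libraries and genes each alternative removes. With the replicate block the counts of members called were 3 at 1000 µM, 1 at 100 µM and 2 at 10 µM, and no count changed, although the numbers share no more than a label: 3 of 21 libraries correlated best with their own number. Contrasts of 1000 and 100 µM against 10 µM were added after the data were seen. CXCL2, CXCL5 and CXCL8 had too few counts to be tested after filtering.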
